A study of Mus musculus with 7 samples.

Results

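The kinesins are the motor proteins that use ATP to walk along microtubules or to take them apart. All protein-coding genes whose symbol begins with Kif or Kifc followed by a digit were taken from the gene table, which gave 44 genes of 56065. From what each motor is known to do, 14 were placed in a mitotic class, 12 in a transport class, 9 in a ciliary class and 8 in a class of other motors, and Kif4-ps, annotated as protein-coding under a pseudogene-style name, had no class. The 44 genes were followed in the extrahepatic bile duct (EHBD), the duct that carries bile from the liver to the intestine, after bile duct ligation (BDL), a surgical block of bile flow out of the duct.

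The mice were adults of both sexes, C57BL/6 in the labels and C57BL/6J in the study's methods, and whole EHBDs were taken 48 hours after BDL or after a sham operation, so that every animal, controls included, had undergone a laparotomy. The sham group had 3 libraries, 1 from a female and 2 from males, and the BDL group had 4, 2 of each sex. The labels do not tie libraries to animals, but the study counts its replicates at this time as mice, and the p-values are read as measuring the spread between mice. The tissue was sequenced whole, without sorting, so that a fall in a cell type and a fall in RNA per cell cannot be told apart.

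Mitotic kinesins build the spindle, move chromosomes to its equator and bring the midzone and the cleavage furrow together at cytokinesis, and in most cells their mRNAs accumulate in G2 and M phase and are scarce outside the cycle. Transport kinesins carry vesicles, mitochondria and endosomes and are made in dividing and resting cells alike, with several members enriched in neurons. Ciliary kinesins carry cargo up the axoneme, the microtubule core of the cilium, or set its length. Cholangiocytes, the epithelial cells that line the duct, bear a primary cilium that senses bile flow and composition.

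Levels are given as CPM, each gene's share of the counts of its library, with library sizes scaled by the trimmed mean of M values (TMM), and are listed in the order Sham 1 to 3 and BDL 1 to 4, where the numbers only name the libraries. Gene positions are on GRCm39. Each library held between 48882420 and 61291821 counts, and of the 25209 genes tested, 11.8% were higher in BDL, 11% were lower and 22.8% differed in either direction with an adjusted p below 0.05 (edgeR quasi-likelihood test with Benjamini-Hochberg adjustment over all tested genes, the source of every adjusted p below). The median log2 fold change over all tested genes was -0.01. The libraries differed in transcripts of neighbouring tissue, which were unequal within each group. The 19 markers of pancreatic acinar cells took between 8.33% and 35.9% of the counts of the sham libraries, with the highest share in Sham 3, and between 0.0025% and 12.8% of the BDL libraries. The 12 hepatocyte markers took 1.16% of BDL 1 and 4.35% of BDL 4 and at most 0.156% of any other library. Of the 10 markers of biliary epithelium, none was at 0 in any library, and their summed level lay between 6277 and 7862 CPM in sham and between 12201 and 14996 CPM in BDL.

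Of the 44 kinesins, 40 passed the minimum of 10 counts in total over the 7 libraries. Kif2b, Kif19b and Kif4-ps had 0 counts in every library, which allows up to 0.0452 to 0.0805 CPM per library (3 counts, counting error only), and Kif28 had 3 counts in all. Among the 40 tested kinesins 15 rose after BDL, against 11.8% of all genes, and 5 fell, against 11% of all genes and so close to that share. The other 20 did not pass the test, and the median log2 fold change was 0.20. In the mitotic class 13 of 13 tested motors rose, against 11.8% of all genes, and the median log2 fold change was 4.85. In the transport class 0 of 12 rose and 3 fell, against 11% of all genes, with a median of -0.34. The count of 0 was the same at an unadjusted p below 0.05 and in DESeq2 and limma-voom. In the ciliary class 1 rose and 1 fell of 9 (median -0.39), and in the class of other motors 1 rose and 1 fell of 6 tested (median -0.10). These counts stand against 11.8% higher and 11% lower of all genes, and with so few members they do not set either class apart. Of the 13 mitotic increases, 13 passed without BDL 1 and 4, the BDL libraries with most hepatocyte RNA, and 12 without BDL 2 and 3, those with most acinar RNA. The 15 increases were 14 or 15 with any library left out, but the 5 decreases were 2 without Sham 1, Sham 3 or BDL 2 and 1 without BDL 1. The ciliary median turned to 0.28 without Sham 1 and to 0.08 without Sham 3.

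**Figure D1:**
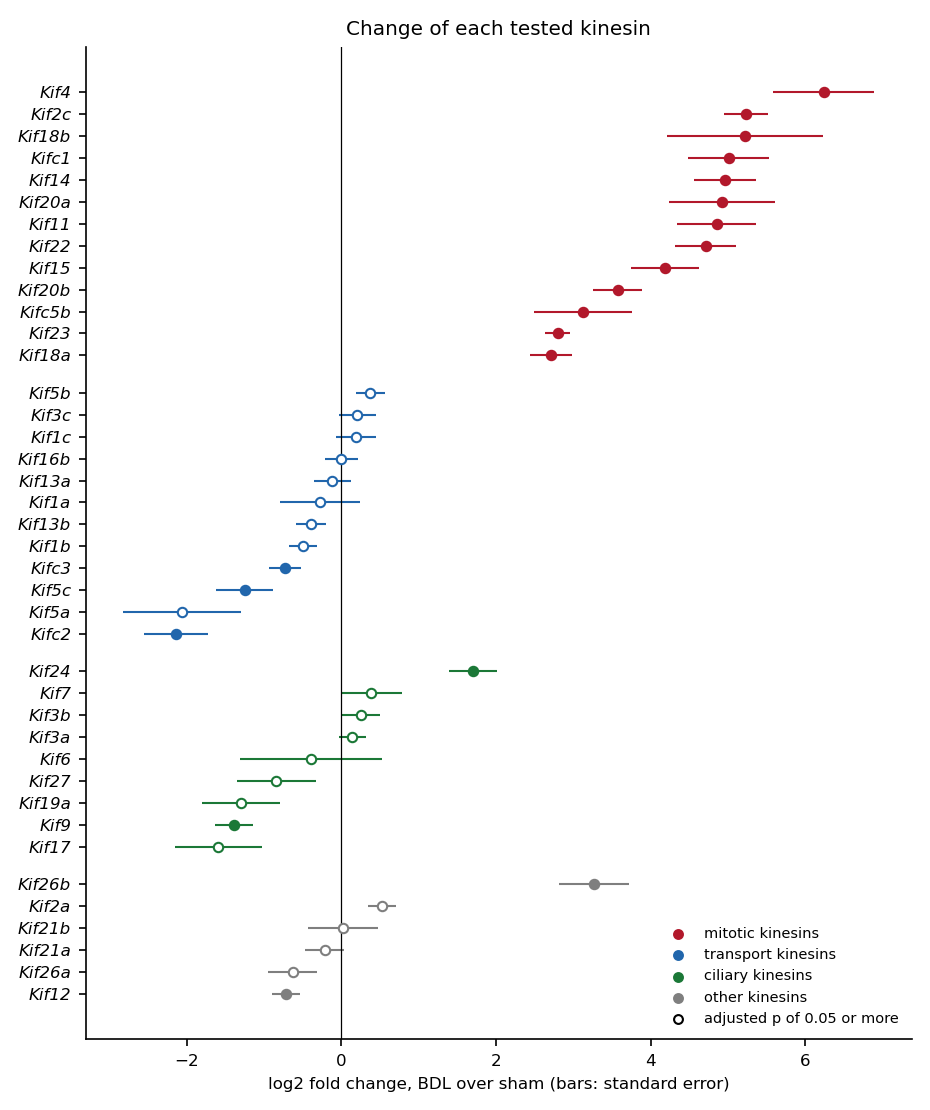
Log2 fold change of BDL over sham (x axis) for each of the 40 tested kinesins (y axis), grouped by class. Points are edgeR estimates, bars are standard errors, and filled points passed an adjusted p of 0.05. The 13 mitotic motors lie between 2.71 and 6.24, and the other 27 between -2.14 and 3.27.

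Kinesin RNA as a whole also changed in make-up. Summed over the members, the mitotic class held 38.4, 42.3 and 22.2 CPM in the 3 sham libraries and 548.9, 639.0, 668.1 and 506.5 CPM in the 4 BDL libraries. Group means were 34.3 ± 10.7 CPM over the sham libraries (SD, n = 3) and 590.6 ± 75.6 CPM over the BDL libraries (SD, n = 4), 17.2 times as high. The transport class held 546.4 ± 34.2 CPM in sham and 514.6 ± 75.3 CPM in BDL, and the ciliary class 69.2 ± 7.52 CPM and 75.1 ± 12.1 CPM, so that in both the means differed by less than the SD in BDL. Mitotic motors accordingly took 4.82%, 6.02% and 2.87% of all kinesin counts in the sham libraries, with 95% Wilson intervals of 4.62% to 5.03%, 5.80% to 6.24% and 2.69% to 3.07%. In the BDL libraries they took 43.1%, 45.2%, 52.7% and 44.9%, with intervals of 42.8% to 43.5%, 44.9% to 45.6%, 52.3% to 53.0% and 44.5% to 45.3%. The 2 groups lay far apart on this share, which does not depend on the scaling between libraries. Sham 3, the library with the lowest share, also had the largest acinar share, and the part of the latter in the former was not tested.

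**Figure D2:**
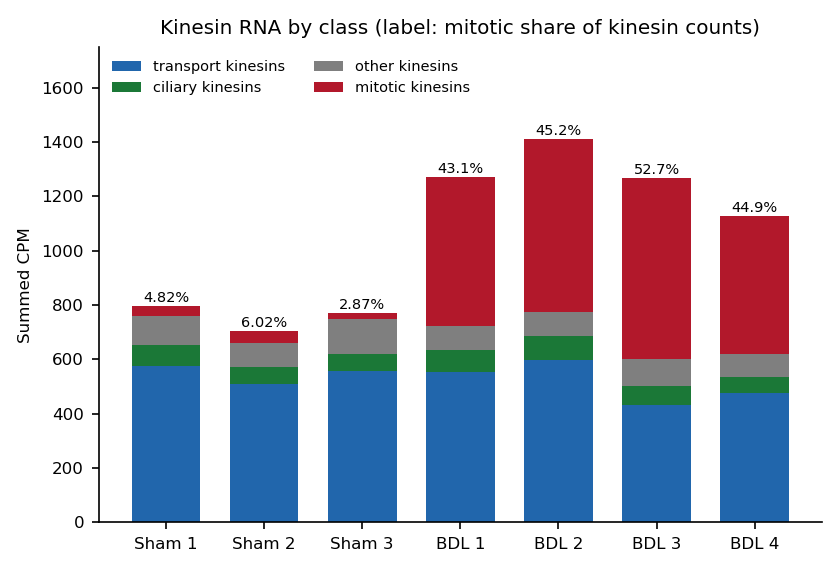
Summed CPM of the kinesin classes (y axis) in each of the 7 libraries (x axis), stacked by class, with the mitotic share of kinesin counts printed above each bar. The mitotic block takes 2.87% to 6.02% of kinesin counts in sham and 43.1% to 52.7% in BDL, over a transport block of similar height in both groups.

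The motors that act on chromosomes and spindle microtubules rose from low levels in sham in every case. Kif4, a chromokinesin that binds chromosome arms and works with the midzone protein Prc1 (chrX:99669343-99770946), was at 0.905, 1.04 and 0.134 CPM in sham and at 54.7, 65.2, 53.4 and 42.7 CPM in BDL. It showed the largest log2 fold change of the 40 tested kinesins, 6.24 (SE 0.65, adjusted p = 0.0012). Kif2c, which depolymerises microtubules at the centromere to correct wrong attachments (chr4:117016830-117039836), was at 1.77, 1.09 and 0.778 CPM in sham and at 36.6, 45.5, 66.4 and 42.9 CPM in BDL (log2 fold change 5.24, SE 0.28, adjusted p = 0.0003). For both genes the lowest BDL library was more than an order of magnitude above the highest sham library.

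Kif22, a second chromokinesin that pushes chromosome arms outward from the poles (chr7:126626898-126641643), was at 3.56, 2.91 and 1.07 CPM in sham and at 60.8, 65.8, 80.7 and 63.8 CPM in BDL (log2 fold change 4.71, SE 0.39, adjusted p = 0.0006). Kifc1, a minus-end-directed motor that focuses the spindle poles (chr17:34094633-34109769), went from 0.308, 0.497 and 0.268 CPM to 8.52, 12.02, 20.6 and 7.54 CPM (log2 fold change 5.01, SE 0.52, adjusted p = 0.0012). BDL 3 was highest for Kif2c, Kif22 and Kifc1, and no BDL library overlapped with sham. The value of Kifc1 is uncertain because 48.0% of its 31-base words also occur in Kifc5b, a near copy on the same chromosome, and Salmon divides such reads by estimation. Kifc5b rose as well, by 3.13 on the log2 scale (SE 0.63, adjusted p = 0.0129), from a low mean of 0.200 ± 0.119 CPM (SD, n = 3) to 1.81 ± 0.792 CPM (SD, n = 4). It missed the threshold without Sham 1 and without BDL 2 and BDL 3 together, with adjusted p-values of 0.0518 and 0.0742.

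The motors of the spindle midzone and of cytokinesis rose too, over a wider range. Kif14, which recruits citron kinase to the midbody (chr1:136394081-136459249), was at 0.154, 0.155 and 0.080 CPM in sham and at 3.58, 4.09, 5.76 and 4.13 CPM in BDL (log2 fold change 4.97, SE 0.40, adjusted p = 0.0006). Kif20b, which is needed for late steps of cytokinesis (chr19:34899752-34953149), was at 3.49, 4.44 and 2.01 CPM in sham and at 32.1, 38.9, 51.4 and 43.2 CPM in BDL (log2 fold change 3.57, SE 0.31, adjusted p = 0.0007). Both genes were separated between the groups in every library.

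Kif23, the motor subunit of the centralspindlin complex (chr9:61823187-61854074), had the highest starting level of the class per kilobase of exon. It was at 14.1, 16.6 and 12.6 CPM in sham and at 104.3, 112.4, 89.5 and 88.1 CPM in BDL (log2 fold change 2.80, SE 0.17, adjusted p = 0.0003). Its level per kilobase was 1.82 CPM in sham, against 0.751 for Kif20a, 0.495 for Kif22 and 0.319 for Kif11, and at 12.4 CPM in BDL, against 23.1, 13.3 and 9.25. Kif18a, which shortens kinetochore microtubules and so holds chromosomes at the spindle equator (chr2:109111083-109173023), had a similar change, from 2.77, 3.62 and 2.79 CPM to 19.9, 26.5, 19.5 and 11.9 CPM. Its log2 fold change of 2.71 (SE 0.27, adjusted p = 0.0011) was the smallest among the 13 tested mitotic motors. In these 2 genes the sham libraries held RNA well above the floor, but this was not particular to them. The sham mean of Kif18a was 3.06 CPM, against 3.77 for Kif20a, 3.31 for Kif20b, 2.86 for Kif11 and 2.51 for Kif22. In Kif23 and Kif18a, Sham 3 was not far below the other 2 sham libraries, whereas it was in Kif4, Kif11 and Kif20a.

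The remaining mitotic motors rose by between 4.19 and 5.22 on the log2 scale. Kif20a, which brings the chromosomal passenger complex to the midzone, averaged 3.77 ± 2.64 CPM over the sham libraries (SD, n = 3) and 115.9 ± 22.0 CPM over the BDL libraries (SD, n = 4), and rose by 4.92 on the log2 scale (SE 0.69, adjusted p = 0.0034). Over 54.8% of its exon bases it overlaps the gene Cdc23 on the opposite strand, and the kit did not mark strand. Cdc23 had a log2 fold change of -0.30 (adjusted p = 0.22), and the part of its reads in the value of Kif20a was not tested. Kif11, the motor that slides antiparallel microtubules apart to make the spindle bipolar, rose by 4.85 (SE 0.52, adjusted p = 0.0013), and Kif15, which can back it up, by 4.19 (SE 0.44, adjusted p = 0.0012). Kif18b, which shortens astral microtubules with Kif2c, rose by 5.22 (SE 1.01, adjusted p = 0.0111), had 0 counts in Sham 3 and missed the threshold without Sham 2 (adjusted p = 0.0530). For all 13 tested mitotic motors every BDL library was above every sham library, an arrangement found for 18.7% of all tested genes.

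**Figure D3:**
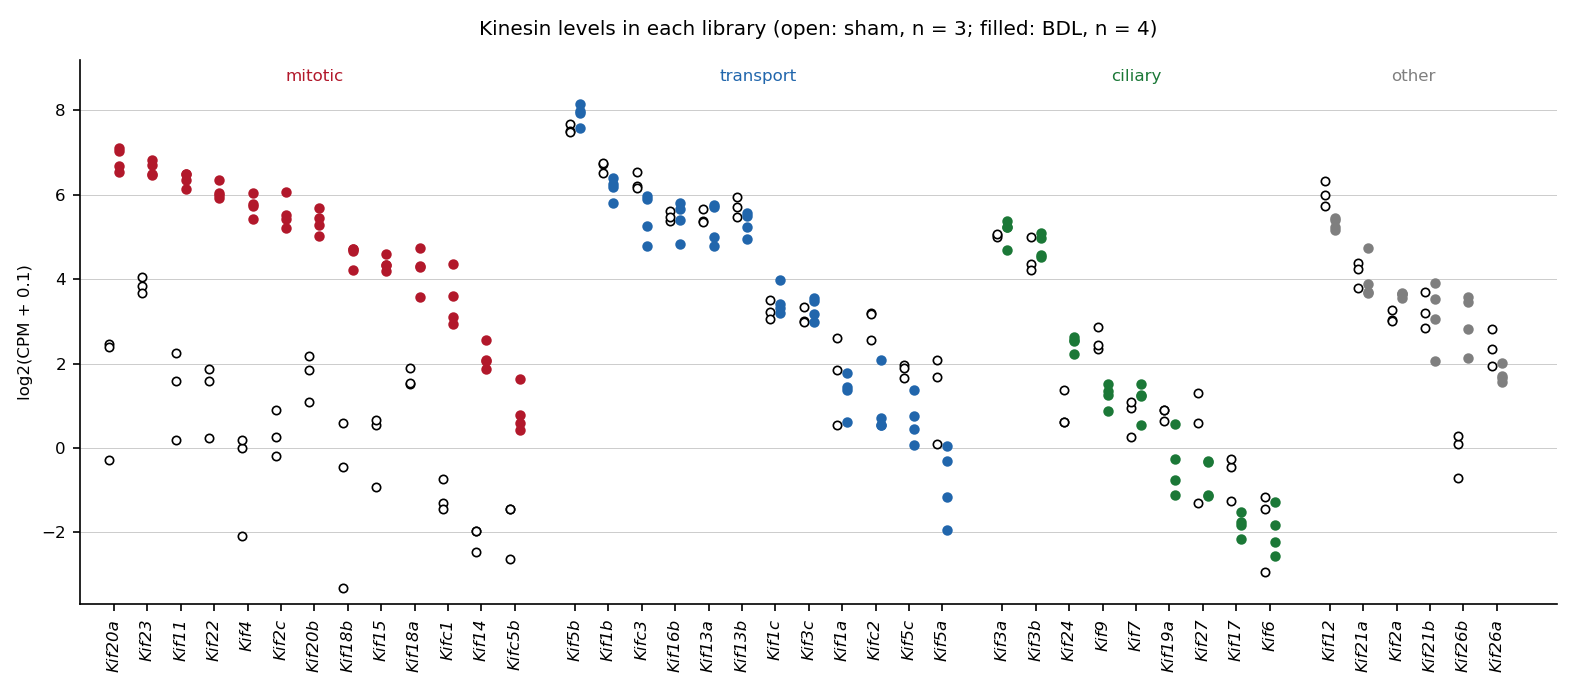
Level of each tested kinesin as log2(CPM + 0.1) (y axis) in each library, with sham libraries open and BDL libraries filled, ordered by class (x axis). In the mitotic class all filled points lie above all open points, whereas in the transport class no gene has all filled points above the open ones.

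The make-up of the mitotic pool shifted with its size. Kif23 alone took 36.7%, 39.2% and 56.7% of the mitotic kinesin counts in the sham libraries and 19.0%, 17.6%, 13.4% and 17.4% in the BDL libraries. Kif18a took 7.22%, 8.56% and 12.6% in sham and 3.62%, 4.14%, 2.92% and 2.34% in BDL. Kif4 went the other way, with 2.36%, 2.46% and 0.605% in sham and 9.97%, 10.2%, 7.99% and 8.44% in BDL. None of these 3 shares overlapped between the groups, so that sham duct held a Kif23-rich pool and ligated duct an evener one.

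**Figure D4:**
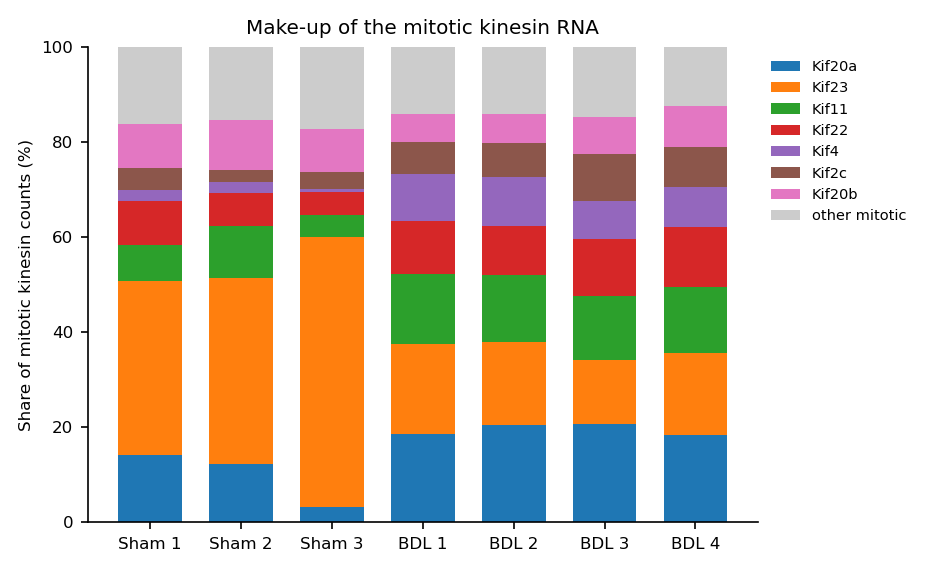
Share of the mitotic kinesin counts held by each motor (y axis, %) in each library (x axis). Kif23 takes 36.7% to 56.7% of the counts in sham and 13.4% to 19.0% in BDL, and Kif20a is the largest single share in BDL 2, BDL 3 and BDL 4, with 20.5%, 20.7% and 18.3%.

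Against Mki67, a general marker of cycling cells that rose from 3.39 ± 1.37 CPM over the sham libraries (SD, n = 3) to 124.6 ± 26.2 CPM over the BDL libraries (SD, n = 4), the sum of the mitotic motors rose less. The log2 ratio of their sum to Mki67 was 3.52, 3.15 and 3.44 in sham and 2.05, 2.08, 2.39 and 2.52 in BDL, with no overlap. With Kif23 left out of the sum, a choice made after the values were seen, the ratio was 2.86, 2.43 and 2.24 in sham and 1.75, 1.80, 2.19 and 2.24 in BDL, and the highest BDL value reached the lowest sham value. Mki67 was 1 of 10 reference genes of S, G2 and M phase. Summed, these 10 held 72.5, 108.9 and 60.7 CPM in sham and 1058, 1191, 1008 and 1035 CPM in BDL. The mitotic motors held 38.4, 42.3 and 22.2 CPM and 548.9, 639.0, 668.1 and 506.5 CPM. Their smaller rise therefore holds against Mki67 and not against this sum. Kif23 was also set against Racgap1, the other subunit of centralspindlin, again after the values were seen. Racgap1 was at 6.88, 8.30 and 2.44 CPM in sham and at 152.7, 169.2, 139.2 and 112.3 CPM in BDL (log2 fold change 4.61, SE 0.47, adjusted p = 0.0011). The log2 ratio of Kif23 to Racgap1 was therefore 1.04, 0.999 and 2.37 in sham and -0.55, -0.59, -0.64 and -0.35 in BDL, so that the 2 subunits of 1 complex differed in their rise.

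Genes of proteins that work with mitotic kinesins rose with few exceptions. Of 21 partner genes 19 rose, against 11.8% of all genes, and their median log2 fold change was 4.88. Aurka, a spindle pole kinase, rose by 4.79 (SE 0.21, adjusted p = 0.0001), Plk1, a mitotic kinase, by 5.36 (SE 0.31, adjusted p = 0.0003), Prc1, the midzone bundler that binds Kif4, by 5.0 (SE 0.35, adjusted p = 0.0004) and Incenp, the scaffold of the chromosomal passenger complex, by 3.46 (SE 0.24, adjusted p = 0.0004). Numa1, which anchors dynein at spindle poles and is present outside mitosis too, had a log2 fold change of -0.21 (adjusted p = 0.43). The exception was Kifbp, a protein that binds kinesin motor domains and blocks them from microtubules. It was at 45.2, 43.7 and 40.3 CPM in sham and at 24.4, 26.5, 37.0 and 32.2 CPM in BDL, without overlap, and decreased by 0.59 on the log2 scale (SE 0.14, adjusted p = 0.0249).

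The promoters of the kinesins were examined for 3 short elements known from cell cycle genes. The CCAAT box was searched by the letters of its name. The cell cycle genes homology region, or CHR, was searched as TTTGAA and in the variant form TTCGAA. The E2F site was searched as TTCGCGC, in a second form as TTGGCGC and in another form as TTCCCGC. Each was searched on both strands from 250 bases before to 50 bases after the annotated start of the canonical transcript (GENCODE M39, GRCm39), and overlaps between elements were allowed. In background, CHR elements are bound by the repressive DREAM complex in resting cells and by MuvB with B-Myb or FoxM1 in G2, often beside a CCAAT box bound by NF-Y. A CHR match stood in 7 of 13 tested mitotic promoters (53.85%), in 0 of 12 transport promoters and in 18.77% of all 21770 protein-coding promoters. A CCAAT match stood in 7 of the 13 as well (53.85%), against 39.92% of all promoters, and both together in 4 (30.77%), against 8.25%. An E2F match was found in 2 of the 13 (15.38%) and in 9.619% of all promoters. Among the 29 kinesin promoters outside the mitotic class, E2F matches were more frequent, in 7 (24.14%). A CCAAT match stood in 9 of these 29 (31.03%), and in 5 of the 9 ciliary promoters among them (55.56%). These are matches of letters and not shown sites, and the 6 tested mitotic promoters with no CHR match (Kif2c, Kif4, Kif14, Kif18a, Kifc1 and Kifc5b) hold both the largest and the smallest fold changes of the class.

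The 4 mitotic promoters below show the arrangement of a CHR near the start, in 3 of them with an upstream CCAAT box. Each stretch runs from 105 bases before the start to base 35, with the start as base 1, on the strand of the gene, with CCAAT boxes (ATTGG on the other strand) and CHR elements (TTCAAA on the other strand) in capitals.
Kif11, chr19:37364694-37364833, plus strand: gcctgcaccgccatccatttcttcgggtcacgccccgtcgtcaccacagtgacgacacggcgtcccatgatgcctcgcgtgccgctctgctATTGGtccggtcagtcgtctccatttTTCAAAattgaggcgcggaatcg
Kif18b, chr11:102815922-102816061, minus strand: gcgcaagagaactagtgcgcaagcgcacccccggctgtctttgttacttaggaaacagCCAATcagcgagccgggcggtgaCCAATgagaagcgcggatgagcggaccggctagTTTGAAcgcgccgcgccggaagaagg
Kif23, chr9:61854039-61854178, minus strand: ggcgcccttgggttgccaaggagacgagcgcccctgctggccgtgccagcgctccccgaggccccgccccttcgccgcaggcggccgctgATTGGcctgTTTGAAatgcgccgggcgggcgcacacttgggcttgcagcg
Kif20b, chr19:34899647-34899786, plus strand: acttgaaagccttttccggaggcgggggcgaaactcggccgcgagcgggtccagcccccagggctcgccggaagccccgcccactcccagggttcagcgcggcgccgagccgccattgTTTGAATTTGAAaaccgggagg
In Kif11 the CCAAT box begins 14 bases before the start and the CHR at base 13, and in Kif18b the boxes begin 47 and 24 bases before it and the CHR at base 10. In Kif23 both lie before the start, and Kif20b carries a pair of CHR letters end to end with no CCAAT box in the stretch shown.

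**Figure D5:**
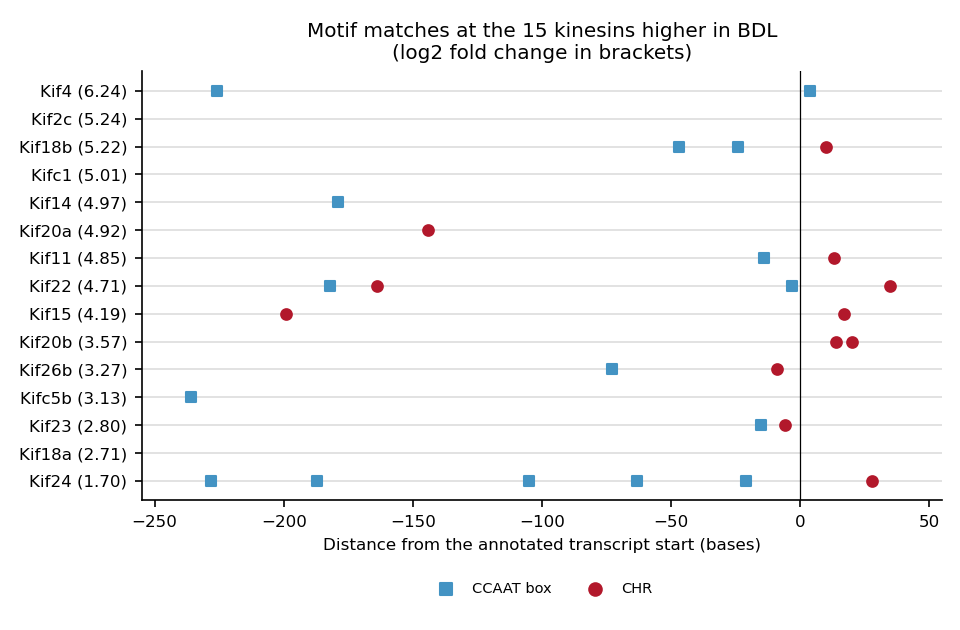
Positions of CCAAT boxes (squares) and CHR elements (circles) relative to the annotated transcript start (x axis, bases) for the 15 kinesins that rose after BDL (y axis), ordered by log2 fold change, which is given in brackets. A CHR match begins within 35 bases after the start in Kif11, Kif15, Kif18b, Kif20b, Kif22 and Kif24, and Kif2c, Kifc1 and Kif18a show neither element.

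Outside the mitotic class 2 of 27 tested kinesins rose, against 11.8% of all genes. After their values were seen, it was found that their promoters were also the only 2 of 29 outside that class with a CHR match. That share, 6.897%, was below the 18.77% of all protein-coding promoters, and a link between the match and the rise was not tested. Kif24, which depolymerises microtubules at the mother centriole and holds back the assembly of a cilium (chr4:41389632-41464901), was at 1.43, 1.43 and 2.50 CPM in sham and at 6.10, 5.79, 5.68 and 4.6 CPM in BDL. It rose by 1.70 on the log2 scale (SE 0.31, adjusted p = 0.0088), and was the 1 ciliary kinesin of 9 that did. Kif26b, a kinesin-like protein without ATPase activity that is known for roles in kidney development and Wnt5a signalling (chr1:178356690-178766765), was at 0.963, 1.12 and 0.510 CPM in sham and at 10.9, 11.9, 6.94 and 4.30 CPM in BDL (log2 fold change 3.27, SE 0.45, adjusted p = 0.0033). Both were separated between the groups in every library and passed under all 17 alternative settings.
Kif24, chr4:41464867-41465006, minus strand: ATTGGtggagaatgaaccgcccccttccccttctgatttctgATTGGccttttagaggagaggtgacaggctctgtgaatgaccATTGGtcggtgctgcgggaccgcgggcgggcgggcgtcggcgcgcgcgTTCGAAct
Kif26b, chr1:178356585-178356724, plus strand: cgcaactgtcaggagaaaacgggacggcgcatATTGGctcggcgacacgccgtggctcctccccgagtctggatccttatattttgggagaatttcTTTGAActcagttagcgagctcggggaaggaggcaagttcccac
The Kif24 stretch is shown for its 3 CCAAT boxes in front of a palindromic CHR, and the Kif26b stretch for its CHR just before the start. None of these letters stand in the same stretch of Kif2c, Kif14, Kif18a, Kifc1 and Kifc5b, which rose. Their absence therefore does not separate motors that fell from motors that rose. The stretches of Kif12 and Kifc2, described below as lower in BDL, hold none either.
Kif12, chr4:63090342-63090481, minus strand: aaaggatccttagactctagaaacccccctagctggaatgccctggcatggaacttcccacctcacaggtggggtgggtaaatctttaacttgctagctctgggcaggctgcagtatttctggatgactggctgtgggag
Kifc2, chr15:76544315-76544454, plus strand: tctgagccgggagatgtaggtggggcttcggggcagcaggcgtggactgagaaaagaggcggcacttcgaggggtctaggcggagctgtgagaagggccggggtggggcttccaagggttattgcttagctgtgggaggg

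Among the transport kinesins most motors of vesicles and organelles showed small differences. Kif5b, the conventional kinesin heavy chain, was at 203.6, 180.7 and 180.2 CPM in sham and at 252.8, 282.1, 190.8 and 244.5 CPM in BDL, with BDL 3 inside the sham range, and did not pass (log2 fold change 0.38, SE 0.19, adjusted p = 0.19). Kif1b, which carries mitochondria and synaptic vesicle precursors, was at 105.5, 91.8 and 107.8 CPM in sham and at 76.0, 72.0, 55.5 and 83.6 CPM in BDL. Its groups did not overlap, as for 36.6% of all tested genes in either direction, but the log2 fold change of -0.50 (SE 0.18) missed the threshold (adjusted p = 0.0854). Kif13b, a motor of guanylate kinase-like scaffolds and endocytic receptors, was at 60.98, 44.3 and 52.0 CPM in sham and at 37.7, 46.9, 45.0 and 30.6 CPM in BDL, with overlapping groups (log2 fold change -0.39, adjusted p = 0.19). The endosome motor Kif16b had a log2 fold change of 0.00 (SE 0.21) and Kif13a one of -0.12 (SE 0.24), and Kif1c (0.19), Kif3c (0.20) and Kif1a (-0.28) missed the test as well.

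The 3 transport kinesins that fell were Kifc2, Kif5c and Kifc3. Kifc2, a minus-end-directed motor first described in neurons (chr15:76543981-76552402), was at 9.01, 5.77 and 8.93 CPM in sham and at 1.35, 1.36, 4.13 and 1.55 CPM in BDL, and decreased by 2.14 on the log2 scale (SE 0.42, adjusted p = 0.0114). BDL 3 was the highest of the BDL libraries and still below every sham library, and without BDL 1 the adjusted p was 0.0547. Kif5c, a neuron-enriched heavy chain (chr2:49509265-49664791), was at 3.83, 3.05 and 3.60 CPM in sham and at 0.948, 1.58, 2.47 and 1.27 CPM in BDL, and decreased by 1.25 on the log2 scale (SE 0.37, adjusted p = 0.0482). Kifc3, a minus-end-directed motor of apical transport and of adherens junctions (chr8:95826350-95930066), was at 73.0, 71.6 and 92.5 CPM in sham and at 62.2, 59.6, 27.4 and 38.2 CPM in BDL, and decreased by 0.73 on the log2 scale (SE 0.21, adjusted p = 0.0449). In all 3 genes every BDL library was below every sham library, an arrangement found for 18% of all tested genes. The calls of Kif5c and Kifc3 stood close to the threshold and held in 9 and 8 of 17 alternative settings, with adjusted p-values of up to 0.194 and 0.242.

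Kif5a, the third heavy chain and also neuron-enriched, was below every sham library in every BDL library but varied more, with means of 2.73 ± 1.62 CPM over the sham libraries (SD, n = 3) and 0.538 ± 0.351 CPM over the BDL libraries (SD, n = 4) and an adjusted p of 0.0928 (log2 fold change -2.06, SE 0.76). Kif1a and Kif3c, also known from neurons, had overlapping groups, with log2 fold changes of -0.28 (adjusted p = 0.73) and 0.20 (adjusted p = 0.58). Beside the neuron-enriched motors, the summed level of 14 neuron markers was 46.7 to 48.7 CPM in sham and 23.7 to 35.5 CPM in BDL. Of the 13 tested, 4 fell (Syt1, Nefl, Nefm and Chat), against 11% of all genes, 1 rose (Tubb3), against 11.8%, and between 1 and 3 of the 14 were at 0 in each BDL library and none in sham. The part of neuronal RNA in the values of Kifc2, Kif5c and Kif5a was not tested.

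Adaptors of transport kinesins were counted as well. Of 18 partner genes 0 rose, at an unadjusted p below 0.05 too, and 2 fell, against 11.8% and 11% of all genes, and their median log2 fold change was -0.04. Mapk8ip3, a scaffold that links kinesin light chains to cargo, decreased by 0.79 on the log2 scale (SE 0.22, adjusted p = 0.0413), and Madd, which couples Kif1b and Kif1a to synaptic vesicle precursors, by 0.74 (SE 0.21, adjusted p = 0.0444). Klc1, a light chain of the conventional motor, was at 37.1 ± 2.67 CPM over the sham libraries (SD, n = 3) and 38.3 ± 1.46 CPM over the BDL libraries (SD, n = 4), a difference smaller than either SD. For dynein and dynactin, the motor that walks the other way and its cofactor, 10 of 24 genes were higher, against 11.8% of all genes, and 0 lower, at an unadjusted p below 0.05 too, with a median of 0.41. The smallest p-values were those of Nde1, a dynein regulator at centrosomes and kinetochores (log2 fold change 1.39, SE 0.17, adjusted p = 0.0019), Actr1a, the filament subunit of dynactin (1.09, SE 0.17, adjusted p = 0.0055), Spdl1, the kinetochore adaptor of dynein (4.98, SE 0.89, adjusted p = 0.0085), and the light chain Dynlt1b (0.86, SE 0.17, adjusted p = 0.0108).

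In the ciliary class the 2 motor subunits that build the cilium did not pass the test. Kif3a was at 32.8, 32.0 and 33.2 CPM in sham and at 37.6, 41.5, 37.2 and 25.5 CPM in BDL (log2 fold change 0.14, SE 0.17, adjusted p = 0.60). Kif3b, its partner in heterotrimeric kinesin, was at 31.7, 20.3 and 18.5 CPM in sham and at 31.5, 33.9, 23.0 and 23.8 CPM in BDL (log2 fold change 0.25, SE 0.25, adjusted p = 0.50), and their accessory subunit Kifap3 had a log2 fold change of -0.01 (SE 0.13). In both motors the groups overlapped, but Kif3b passed as higher in BDL in 1 of 17 alternative settings, without Sham 1 (adjusted p = 0.0341). Kif7, the kinesin of the ciliary tip that acts in Hedgehog signalling, was at 1.83, 2.02 and 1.10 CPM in sham and at 2.30, 2.24, 2.75 and 1.35 CPM in BDL, again with overlap (log2 fold change 0.39, SE 0.39, adjusted p = 0.52).

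The ciliary motor that fell was Kif9, which belongs to the central apparatus of motile cilia and flagella (chr9:110305569-110355804). It was at 7.16, 4.96 and 5.29 CPM in sham and at 2.30, 1.74, 2.45 and 2.74 CPM in BDL, with no overlap, and decreased by 1.39 on the log2 scale (SE 0.25, adjusted p = 0.0085), with an adjusted p of 0.0600 without BDL 2 and BDL 3. Kif19a, which trims the tips of motile cilia, was at 1.77, 1.76 and 1.45 CPM in sham and at 0.361, 0.733, 1.38 and 0.492 CPM in BDL, below every sham library, but missed the threshold (log2 fold change -1.30, SE 0.51, adjusted p = 0.11). Kif17, a homodimeric motor of the cilium and of dendrites, lay below sham in the same way at a far lower level, 0.563 ± 0.214 CPM over the sham libraries (SD, n = 3) and 0.187 ± 0.0509 CPM over the BDL libraries (SD, n = 4), with an adjusted p of 0.0817. Kif27 (log2 fold change -0.84) and Kif6 (-0.39), both known from motile cilia, had overlapping groups.

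Markers of multiciliated cells were lower in sum where Kif9 was lower. The summed level of 13 genes was 12 to 16.3 CPM in sham and 4.56 to 7.87 CPM in BDL, and 3 of 11 tested genes fell (Foxj1, Dnah5 and Ccdc39), against 11% of all genes, while the other 8 did not pass. Foxj1, the master regulator of motile cilia, was at 3.53 ± 1.19 CPM in sham and 0.718 ± 0.101 CPM in BDL (log2 fold change -2.18, adjusted p = 0.0058), whereas Ccno and Ccdc40 had log2 fold changes of 0.33 and 0.18 and Hydin was at 0 in sham and averaged 0.0712 CPM in BDL, none of them past the threshold. Between 2 and 5 of the 13 were at 0 in each library. The part of these cells in the value of Kif9 was not tested. Of 29 partners of ciliary kinesins, mainly intraflagellar transport and Hedgehog genes, 1 rose and 5 fell, against 11.8% and 11% of all genes, and the median log2 fold change was -0.15. The intraflagellar transport genes Ift172 (-0.93, SE 0.14, adjusted p = 0.004), Ift122 (-0.70, SE 0.13, adjusted p = 0.0088) and Ift80 (-1.16, SE 0.21, adjusted p = 0.0089) were lower on the log2 scale, and Gli3, a transcription factor of the Hedgehog pathway, was higher (1.20, SE 0.20, adjusted p = 0.0063).

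Among the other motors Kif12 is linked to bile duct biology, since variants in human KIF12 have been linked to cholestasis (chr4:63083867-63090376). In sham duct its level per kilobase of exon, 19.2 CPM, was the highest of the 44 kinesins, ahead of Kif5b at 14.6, and in BDL it was 11.6 CPM, behind the mitotic Kif20a at 23.1, Kif5b at 18.8 and the mitotic Kif22 and Kif23. Kif12 was at 63.3, 53.4 and 79.5 CPM in sham and at 42.3, 37.3, 43.6 and 35.6 CPM in BDL, with no overlap, and decreased by 0.72 on the log2 scale (SE 0.18, adjusted p = 0.0268). The call held in 11 of 17 alternative settings and was lost without Sham 1, Sham 3, BDL 1 or BDL 2 and without either pair of BDL libraries, with adjusted p-values of up to 0.101. The epithelial surface gene Epcam, chosen for comparison after the values were seen, was at 705.3, 554.3 and 420.8 CPM in sham and at 874.8, 804.6, 646.3 and 511.8 CPM in BDL and did not pass (log2 fold change 0.34, adjusted p = 0.44). The log2 ratio of Kif12 to Epcam was -3.48, -3.38 and -2.40 in sham and -4.37, -4.43, -3.89 and -3.85 in BDL, so that Kif12 was lower relative to this gene in each BDL library.

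The remaining motors of this class did not pass the test. Kif2a, a microtubule depolymerase related to Kif2c that is made outside mitosis too, was at 8.03, 7.91 and 9.58 CPM in sham and at 11.7, 12.3, 12.6 and 12.4 CPM in BDL, above every sham library (log2 fold change 0.53, SE 0.18, adjusted p = 0.0777, and 0.0331 in DESeq2). Kif21a, which restrains microtubule growth at the cell cortex, was at 20.9, 13.6 and 18.7 CPM in sham and at 12.7, 12.7, 14.6 and 26.7 CPM in BDL, where BDL 4 stood above all other libraries. Its relative Kif21b was at 9.01, 7.07 and 12.9 CPM in sham and at 8.20, 11.5, 15.0 and 4.06 CPM in BDL. Kif26a, the relative of Kif26b that acts in development of the enteric nervous system, was at 3.72, 4.94 and 7.002 CPM in sham and at 3.16, 3.04, 3.93 and 2.85 CPM in BDL (log2 fold change -0.63, SE 0.31, adjusted p = 0.19), where Kif26b rose.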

How the data were processed

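The authors made libraries with a SMART-Seq mRNA kit, which does not mark strand, read them as 151 bp pairs and used Salmon with GRCm39, as the submitters' notes name it, to obtain gene values from transcripts. What the authors deposited are whole-number estimated counts for each gene, without normalization. Names and coordinates came from GENCODE M39, which matched 55563 of 56065 identifiers, and the other 502 held 0.0335% of the counts. Libraries of a group differed by far more than sampling noise (chi-square over degrees of freedom of at least 225.3). Library totals ran from 48882420 to 61291821, and intervals and floors cover counting error only.

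Groups, sex and time came from the labels. The test was edgeR's quasi-likelihood F test (version 4.0.16, R 4.3.3) with TMM scaling, terms for surgery and sex and 4 residual degrees of freedom, run on genes whose counts summed to 10 or more. Adjustment was by Benjamini-Hochberg with a threshold of 0.05, and each standard error was derived from the log2 fold change and its F value. The fit was checked on simulated counts. The alternatives tried were 2 other scalings (RLE, upper quartile), 2 other filters, DESeq2 1.42.0, limma-voom (limma 3.58.1), no sex term, acinar and hepatocyte markers removed, and libraries left out singly and as the BDL pairs 1 and 4 or 2 and 3. Shared 31-base words and exon overlaps were counted in the same annotation. No p-values are given for sums over members or for ratios.

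The members, classes, lists and alternatives were chosen with earlier results of these data known. Values in every library are given for up to 8 mitotic motors and up to 6 of each other class, called genes first by adjusted p at 1 CPM or more and then the most abundant, and for up to 4 partners of each list and any that moved against it. Kif20a, Kif11, Kif15, Kif18b and Kifc5b are given more briefly, and Racgap1 and Epcam were added after their values were seen. Some values for genes that neighbour or accompany the members are not reported here.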

Additional observations from a re-analysis of the deposited data

Results flagged for a closer look

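Among 42 tests of 4 BDL libraries for a value apart from the other 3, 3 kinesins were picked out, and chance alone picks out about 1 in 20 such groups. Kif18b, a mitotic motor, was at 18.5 CPM in BDL 4, below the 25.3 to 26.1 CPM of the other BDL libraries, and still above every sham library. Kifc2, a transport motor that fell, was at 4.13 CPM in BDL 3, above the 1.35 to 1.55 CPM of the others. Kif21a was at 26.7 CPM in BDL 4, above the 12.7 to 14.6 CPM of the others, and BDL 4 was also the library with the largest share of hepatocyte markers (4.35%), whose part in this value was not tested.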

How the results depend on the processing

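No paired analysis was possible because the labels give the libraries no replicate numbers that sham and BDL share. The 13 mitotic increases kept their direction in all 17 alternatives, and 12 or 13 passed. The difference in mitotic share of kinesin counts, 41.9 percentage points, lay between 39.9 and 43.0 with any library left out. Upper quartile scaling moved the median log2 fold change over all genes from -0.01 to -0.13.

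The count of genes lower in BDL was 4188 in DESeq2 and 1692 without BDL 2 and 3, and between 1431 and 2883 with any library left out, against 1678 to 3152 for genes higher. Kinesins lower in BDL were 8 in DESeq2, 2 without BDL 1 and 4, 3 without BDL 2 and 3 and 1 to 6 with any library left out. Of these, transport kinesins were 5 in DESeq2, 1 without BDL 1 and 4 and 0 to 3 with a library left out. Ciliary kinesins lower in BDL were 2 with filterByExpr, 2 in DESeq2, 0 without BDL 2 and 3 and 1 to 2 with a library left out, and 1 to 2 were higher. Other kinesins higher in BDL were 2 in DESeq2, and those lower were 0 without either BDL pair and 0 to 1 with a library left out.

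The mitotic median lay between 4.44 and 5.20 with any library left out, and the transport median was -0.15 without BDL 1 and 4. The ciliary median was -0.53 under upper quartile scaling, 0.13 in limma-voom, -0.057 without BDL 1 and 4, -0.75 without BDL 2 and 3 and -0.94 to 0.28 with a library left out. The median of other kinesins was -0.22 under upper quartile scaling, 0.032 with no filter, -0.35 without BDL 2 and 3 and -0.27 to 0.10 with a library left out.

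Sign changes touched 8 kinesins that had not passed the test, with log2 fold changes as follows. Kif16b was at 0.0052 with no filter, 0.0040 in limma-voom, 0.13 without BDL 1 and 4, and -0.13 to 0.31 with a library left out, and Kif13a at -0.27 to 0.35. Kif1a was at 0.077 without BDL 1 and 4 and -0.90 to 0.11 with a library left out, and Kif6 at 0.23 in limma-voom and -1.04 to 0.42 with a library left out. Without BDL 2 and 3, Kif1c was at -0.022, Kif3c at -0.038 and Kif3a at -0.038. Kif21b was at -0.017 under RLE scaling, -0.098 under upper quartile scaling, -0.0050 with filterByExpr, -0.017 in DESeq2, -0.025 in limma-voom, -0.65 without BDL 2 and 3 and -0.41 to 0.26 with a library left out. The cause of these changes was not tested. With 3 and 4 libraries and 4 residual degrees of freedom, small differences such as those of Kif5b, Kif1b and Kif2a could not be settled.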
